A study of Homo sapiens with 6 samples.

Results

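RGS proteins, the regulators of G protein signalling, were followed in the human myeloma cell line KMS27 with and without overexpression of HA-TAZ. The members are 9 genes, RGS1, RGS2, RGS3, RGS10, RGS12, RGS13, RGS14, RGS16 and RGS19, out of 63677 gene IDs in the deposited table. They were chosen by gene symbol, with the difference between HA-TAZ and control libraries in these data already known, so their differences below are a description and are not offered as evidence. Each symbol had 1 gene ID, and the transcripts of that ID were summed.

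The groups were 3 libraries of KMS27 cells labelled wild type and 3 of KMS27 cells labelled HA-TAZ, that is, cells made to express TAZ (the product of WWTR1, a transcriptional coactivator of the Hippo pathway) with an HA tag. Both groups share KMS27, a myeloma line grown from malignant plasma cells. The promoter of the construct, the number of clones and the meaning of HA in the titles of the wild type samples are not given in the labels. No label says that libraries came from separate cultures, so p-values measure the spread between these libraries, which may be technical. The TAZ libraries are numbered as in their titles (HA-TAZ 1 to 3). The control values stand under a column name that no label explains, were taken as wild type by elimination, and are called control a, b and c, with no tie to a particular sample. Total RNA depleted of ribosomal RNA was sequenced, which retains unspliced RNA.

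Heterotrimeric G proteins carry signals from receptors in the cell membrane, among them the chemokine receptors that guide lymphocytes. An active Gα subunit holds GTP, and an RGS protein binds it through the RGS domain and speeds up GTP hydrolysis, which ends the signal of both Gα and Gβγ. In B-lineage cells RGS1 and RGS13 are known for restraining the response to chemokines, and plasma cells use the same receptors to reach and stay in the bone marrow.

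Values are TPM (an abundance relative to all transcripts of a library and corrected for transcript length), so levels of different genes can be compared. TPM is a share of the library, and the library make-up differed: RN7SL1 and RN7SL2 took 14.1 to 15.6% of TPM with HA-TAZ against 9.27 to 12.5% without, and the groups did not overlap. TPM was therefore also divided by a factor per library (scaled TPM). Over the 22651 tested genes, log2 fold changes had a median of −0.03 on scaled TPM and −0.27 on TPM as deposited, and members close to no change can switch direction between these scales. WWTR1, the overexpressed gene, ranged from 293 to 306 TPM with HA-TAZ and from 1.69 to 2.69 TPM without. Of 10 plasma cell markers, 9 had a mean of at least 1 TPM, and CD79A was near 0. CD79A has more than 1 gene ID, of which 1 was read, so its level is uncertain. The summed TPM of these markers was 2785 to 3217 in HA-TAZ and 4270 to 4825 in control libraries, a difference whose part in the results was not tested. Most of that sum is IGJ, the joining chain of secreted antibodies, which averaged 2457 TPM with HA-TAZ and 3792 TPM without. On scaled TPM, SLAMF7 was called higher (0.95), CD38 lower (−0.61) and the other 7 tested markers neither (limma), while on TPM as deposited 1 was called higher and 5 lower. Over all tested genes 4.67% were called higher and 2.63% lower on scaled TPM, and 1.15% higher and 13.5% lower on TPM as deposited. T cell, myeloid, fibroblast and epithelial lists of 3 or 4 genes each summed to at most 3.77 TPM in any library.

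RGS1 was the most abundant member in both groups and was 3.77-fold higher in TPM in HA-TAZ libraries. It made up 61.3% of the summed TPM of the 9 members with HA-TAZ and 29.6% without. RGS2 and RGS16 were higher by smaller factors (1.64 and 1.27 in TPM). RGS10, RGS12, RGS14 and RGS19 had small differences whose direction depended on the scale. Of the 7 members that passed the filter of a mean of at least 1 TPM, 3 were past the threshold and higher (limma, Benjamini-Hochberg adjusted p under 0.05 over 22651 genes) and 0 were lower. Over all tested genes 4.67% were called higher and 2.63% lower, and over the tested protein-coding genes 7.5% were called higher. In both directions together 7.29% were called. On TPM as deposited, RGS1 and RGS2 were past the threshold and higher, where 1.15% of tested genes were called higher and 13.5% lower. Nothing is read from the members' count against these shares, since the members were chosen with this contrast in view. The median log2 fold change of the 7 was 0.15 on scaled TPM and −0.07 on TPM as deposited. RGS3 and RGS13 were under the filter and are described by level.

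**Figure D1:**
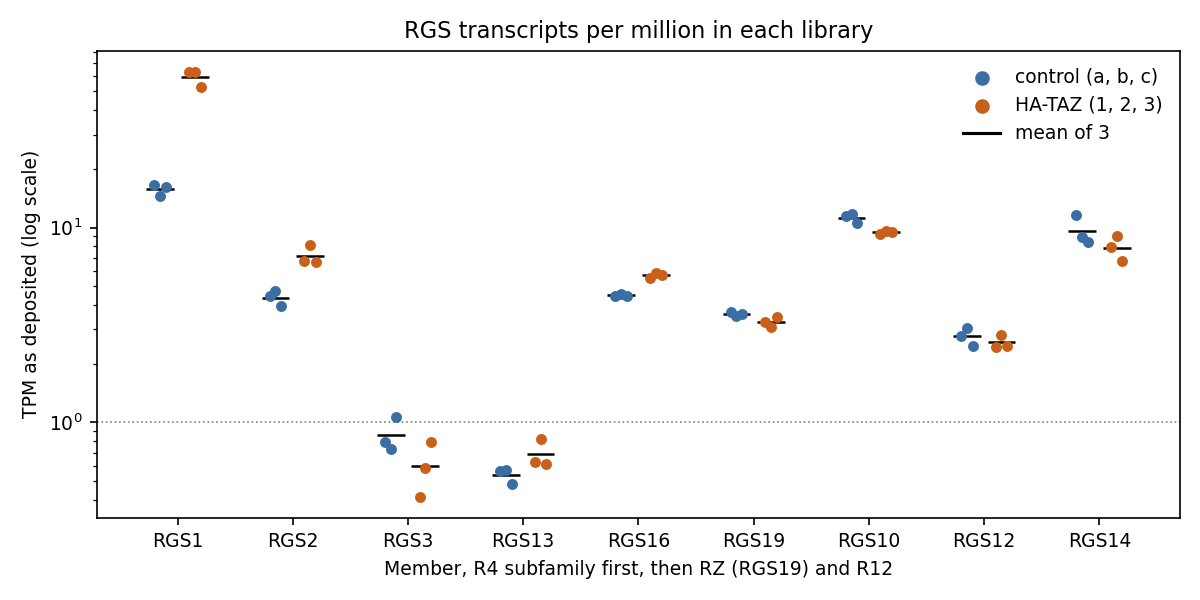
TPM as deposited (log axis) of the 9 members in each library, with controls in blue, HA-TAZ in orange and the mean of 3 as a bar. The dotted line marks 1 TPM. RGS1 stands at 52.6 to 62.9 TPM in HA-TAZ and 14.5 to 16.5 TPM in control libraries, and the points of RGS3, RGS12 and RGS14 overlap between groups.

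The R4 subfamily, mostly small proteins that consist of little more than the RGS domain, holds RGS1, RGS2, RGS3, RGS13 and RGS16. RGS1, which accelerates GTP hydrolysis on Gαi and Gαq and dampens lymphocyte migration towards chemokines, stood at 62.9, 62.6 and 52.6 TPM across HA-TAZ 1 to 3. Its level across controls a to c was 16.5, 14.5 and 16.2 TPM. The lowest HA-TAZ library was thus above 3 times the highest control. The means were 59.4 ± 5.83 and 15.7 ± 1.06 TPM (SD, n = 3 each). On the scale of log2(scaled TPM + 1) the fold change was 2.14 (SE 0.09), the largest among the members and rank 22 among all tested genes. RGS1 stayed past the threshold under each of the 12 alternatives, with values from 1.85 to 2.21. In bulk RNA, more cells with RGS1 and more RGS1 RNA per cell cannot be told apart.

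RGS2, which acts preferentially on Gαq, stood at 6.73, 8.14 and 6.69 TPM across HA-TAZ 1 to 3 and at 4.47, 4.70 and 3.94 TPM across controls a to c. The groups did not overlap on either scale. Its log2 fold change was 0.86 (SE 0.09), and 0.61 on TPM as deposited. It was no longer past the threshold without HA-TAZ 1 (0.88) or without HA-TAZ 2 (0.82).

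RGS16, a regulator of Gαi and Gαq, had the smallest relative spread of the members in controls on TPM as deposited, though not on scaled TPM. It stood at 5.54, 5.83 and 5.74 TPM across HA-TAZ 1 to 3 and at 4.47, 4.55 and 4.44 TPM across controls a to c, with no overlap. Its log2 fold change was 0.54 (SE 0.08). On TPM as deposited the value was 0.29 and not past the threshold. The call was also lost in each of the 6 fits that left out a library (without HA-TAZ 1, 2 or 3, or control a, b or c), where the value stayed between 0.49 and 0.57.

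The start regions of the members that differed most are shown because RGS1, RGS2 and RGS16 were higher together. They are the 250 bases before the start in RefSeq on GRCh38.p14, on the gene's strand, while the submitters' processing notes name GRCh37, so the coordinates apply to the sequences only. Capitals mark CG dinucleotides and, where present, TATAAA.
RGS1 (chr1:192575523-192575772, plus strand): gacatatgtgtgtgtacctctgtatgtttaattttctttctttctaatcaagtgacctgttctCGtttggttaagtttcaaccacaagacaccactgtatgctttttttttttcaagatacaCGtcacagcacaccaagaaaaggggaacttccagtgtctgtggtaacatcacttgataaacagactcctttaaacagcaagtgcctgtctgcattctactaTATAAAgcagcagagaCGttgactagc
RGS2 (chr1:192808789-192809038, plus strand): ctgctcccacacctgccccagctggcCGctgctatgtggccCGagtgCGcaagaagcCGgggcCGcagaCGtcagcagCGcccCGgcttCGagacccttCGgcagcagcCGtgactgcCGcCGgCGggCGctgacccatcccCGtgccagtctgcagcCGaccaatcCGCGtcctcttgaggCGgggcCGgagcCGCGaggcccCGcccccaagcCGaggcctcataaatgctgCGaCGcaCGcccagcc
RGS16 (chr1:182604390-182604639, minus strand): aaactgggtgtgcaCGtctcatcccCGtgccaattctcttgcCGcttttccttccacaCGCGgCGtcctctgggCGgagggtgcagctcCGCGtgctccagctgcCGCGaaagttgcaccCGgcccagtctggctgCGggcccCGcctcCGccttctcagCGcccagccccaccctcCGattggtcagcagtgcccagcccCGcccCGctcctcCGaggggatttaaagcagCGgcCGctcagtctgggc

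The RGS1 region has 39.2% GC, 3 CG dinucleotides and TATAAA at 27 bases before the start. The RGS2 and RGS16 regions have 72.8 and 68.4% GC, 28 and 22 CG dinucleotides and no TATAAA. Over 35116 RefSeq start regions of the same length the median was 58.0% GC and 11 CG dinucleotides, and 6.80% held TATAAA on the gene's strand, a search added after the regions were seen. On both strands, GGAATG of TEAD factors (the DNA-binding partners of TAZ) occurs in 11.9% of these regions, GGNNTTTCC of NF-kB in 5.48%, TGACTCA of AP-1 in 4.20%, TGACGTCA of the cAMP response element in 1.65% and TTCNNTTTC of the interferon response element in 6.88%. No 1 of these strings contains another. None of these exact strings is in the regions of RGS1, RGS2 or RGS16. Looser forms of these motifs were not searched, and nothing is said of sites elsewhere. Of the 19 regions listed for the 9 members, the third of RGS12 alone held a match (NF-kB).

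Each main RGS1 transcript was higher with HA-TAZ. ENST00000367459.3, which codes for protein, was at 33.3, 31.6 and 25.3 TPM across HA-TAZ 1 to 3 and at 8.56, 7.80 and 8.77 TPM across controls a to c. ENST00000498352.1, a form that keeps an intron per GENCODE release 29, was at 10.6, 11.5 and 9.63 TPM across HA-TAZ 1 to 3 and at 2.46, 2.19 and 2.29 TPM across controls a to c. Protein-coding transcripts held 63.4 ± 1.68% of RGS1 TPM in HA-TAZ and 62.6 ± 2.92% in control libraries, and intron-retaining transcripts held the rest, 36.6 ± 1.68% and 37.4 ± 2.92% (SD, n = 3 each). The ranges overlapped, so the split between these forms differed by less than the spread between libraries. Within each class some shares differed more, without overlap. The protein-coding ENST00000469578.2 held 12.1 to 14.1% with HA-TAZ and 7.45 to 10.9% without. Of the intron-retaining forms, ENST00000498352.1 held 16.9 to 18.3% with HA-TAZ and 14.1 to 15.1% without, and ENST00000583155.1 differed the other way, with 5.76 to 7.23% against 7.63 to 10.3%.

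RGS13, known from germinal centre B cells and mast cells, was low in every library. It stood at 0.626, 0.826 and 0.615 TPM across HA-TAZ 1 to 3 and at 0.561, 0.569 and 0.485 TPM across controls a to c. The HA-TAZ values all lay above the controls, with means of 0.689 ± 0.119 and 0.538 ± 0.0465 TPM (SD, n = 3 each). RGS3, a regulator with long and short forms, stood at 0.416, 0.581 and 0.795 TPM across HA-TAZ 1 to 3 and at 0.793, 0.730 and 1.06 TPM across controls a to c, and the groups overlapped. Among all 9 members, 4 (RGS1, RGS2, RGS13 and RGS16) were higher without overlap in scaled TPM and 0 were lower, where 20.2% of tested genes were higher and 18.3% lower without overlap. On TPM as deposited the same 4 were higher and 2 (RGS10 and RGS19) lower without overlap, where 4.41% of tested genes were higher and 43.6% lower. RGS13 is counted here although it was under the filter that defines these shares.

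**Figure D2:**
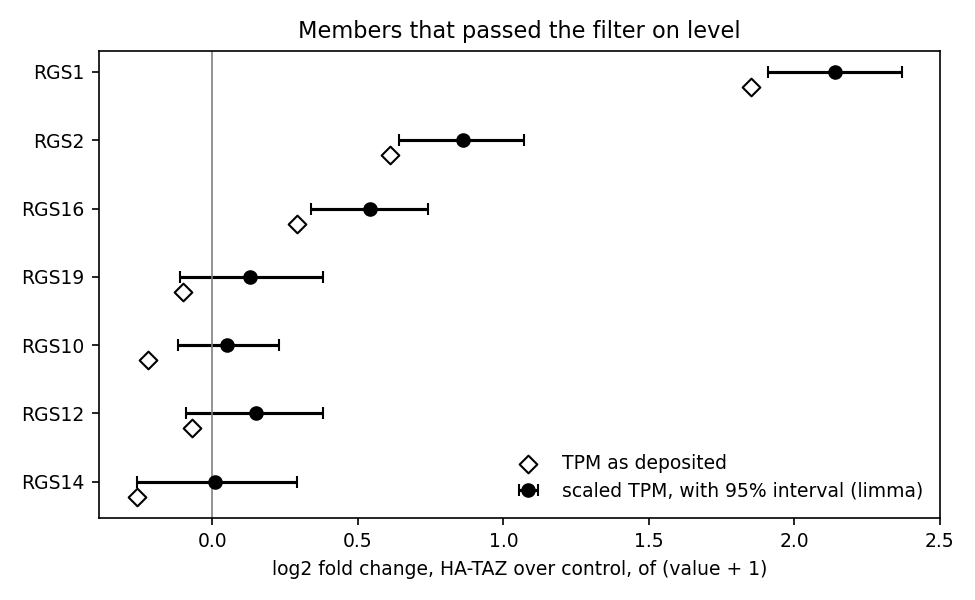
Log2 fold change of HA-TAZ over control for the 7 members that passed the filter, as filled circles with the 95% interval on scaled TPM and as open diamonds on TPM as deposited. RGS1 (2.14), RGS2 (0.86) and RGS16 (0.54) lie to the right of 0, while RGS19, RGS10, RGS12 and RGS14 have intervals that include 0 and open diamonds below 0.

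RGS19, or GAIP, is the RZ subfamily member and acts on the Gαi class. It stood at 3.29, 3.10 and 3.49 TPM across HA-TAZ 1 to 3 and at 3.67, 3.51 and 3.61 TPM across controls a to c. As deposited, each HA-TAZ library was below each control. On scaled TPM the groups overlapped, with a log2 fold change of 0.13 and a 95% interval from −0.11 to 0.38 (limma). The value was −0.10 on TPM as deposited.

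The R12 subfamily holds RGS10, a small protein consisting mostly of its RGS domain, and the large RGS12 and RGS14, which also bind Ras-like GTPases and carry a GoLoco motif for inactive Gαi. RGS10 was the second most abundant member, at 9.25, 9.55 and 9.51 TPM across HA-TAZ 1 to 3 and 11.4, 11.7 and 10.5 TPM across controls a to c. Its log2 fold change was 0.05 (95% interval −0.12 to 0.23, limma), against −0.22 on TPM as deposited, where the groups did not overlap. RGS14 was at 7.95, 9.05 and 6.70 TPM across HA-TAZ 1 to 3 and 11.6, 8.95 and 8.41 TPM across controls a to c, with overlap. Its log2 fold change was 0.01 (95% interval −0.26 to 0.29, limma). RGS12 was at 2.45, 2.82 and 2.46 TPM across HA-TAZ 1 to 3 and 2.78, 3.05 and 2.47 TPM across controls a to c, also with overlap, and its log2 fold change was 0.15 (95% interval −0.09 to 0.38, limma). These intervals leave room for changes of up to about 0.4 on the log2 scale. The values of RGS12 and RGS14 on TPM as deposited were −0.07 and −0.26.

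RGS10 had a level close to the controls, but its transcripts were in other proportions. ENST00000369103.2 held 72.1, 77.7 and 84.2% of RGS10 TPM across HA-TAZ 1 to 3 and 61.0, 57.4 and 62.9% across controls a to c. ENST00000392865.1 held 17.9, 16.5 and 13.9% across HA-TAZ 1 to 3 and 33.1, 24.8 and 28.8% across controls a to c. Neither share overlapped between the groups. In TPM, the second transcript was at 1.65, 1.58 and 1.32 across HA-TAZ 1 to 3 and at 3.76, 2.90 and 3.02 across controls a to c. In the authors' deposited table the effects were 0.304 (SE 0.120, q = 0.128) and −0.530 (SE 0.191, q = 0.0795), so neither transcript passed a q-value of 0.05. These shares were singled out after their values were seen.

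**Figure D3:**
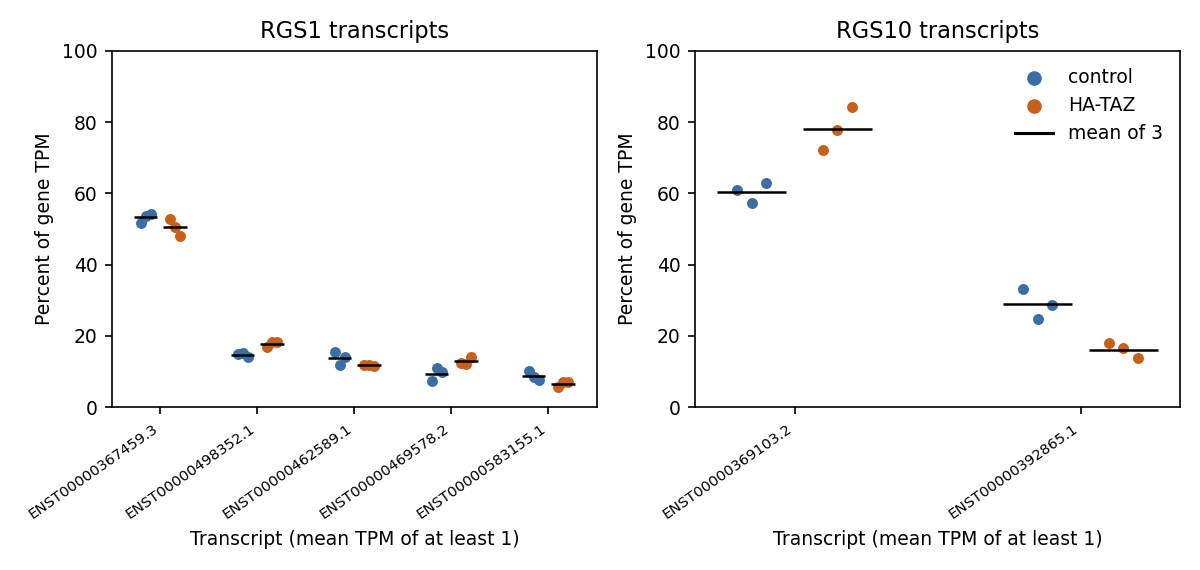
Percent of a gene's TPM held by each transcript with a mean of at least 1 TPM, for RGS1 (left) and RGS10 (right), with controls in blue, HA-TAZ in orange and the mean of 3 as a bar. The mean share of RGS1 ENST00000367459.3 is 50.5% with HA-TAZ and 53.2% without, while ENST00000369103.2 of RGS10 holds 57.4 to 62.9% in controls and 72.1 to 84.2% in HA-TAZ libraries.

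The 2 RGS10 transcripts begin at different starts. In GENCODE release 29, ENST00000369103.2 begins 11 bases downstream of the first RefSeq start and ENST00000392865.1 begins 53 bases downstream of the other, 6186 bases from the first. The regions before both starts are shown because the shares of these transcripts differed between the groups, with capitals for CG dinucleotides.
RGS10 first start (chr10:119542720-119542969, minus strand): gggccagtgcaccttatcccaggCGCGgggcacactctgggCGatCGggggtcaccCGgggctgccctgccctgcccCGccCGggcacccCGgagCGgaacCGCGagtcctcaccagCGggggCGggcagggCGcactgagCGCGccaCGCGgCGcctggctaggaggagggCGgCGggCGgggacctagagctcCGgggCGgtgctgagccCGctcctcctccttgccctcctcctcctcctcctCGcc
RGS10 other start (chr10:119536587-119536836, minus strand): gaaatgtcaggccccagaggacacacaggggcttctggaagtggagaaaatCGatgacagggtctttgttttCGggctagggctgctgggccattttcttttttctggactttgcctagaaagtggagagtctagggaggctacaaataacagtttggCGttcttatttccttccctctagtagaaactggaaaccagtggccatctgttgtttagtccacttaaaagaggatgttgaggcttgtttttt
The first region has 77.2% GC and 26 CG dinucleotides, and the other has 46.0% GC and 3. The CG-rich start thus belongs to the transcript that held the larger share in every library and a larger share still in HA-TAZ libraries.

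RGS14 was divided over more forms. Protein-coding transcripts held from 45.8 to 73.5% of its TPM in HA-TAZ and from 24.8 to 55.8% in control libraries, and the ranges overlapped. RGS19 TPM came mainly from ENST00000332298.5, with 69.6 to 73.3% in HA-TAZ and 80.7 to 95.5% in control libraries, which did not overlap. The other protein-coding RGS19 transcript, ENST00000395042.1, was listed at 0 in control a and at 0.482 to 0.788 TPM elsewhere. RGS3 and RGS12 were spread over 30 and 28 transcripts, and no transcript of either reached a mean of 1 TPM.

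The order of levels was similar in both groups below RGS1. In controls, RGS1 (15.7 TPM) was followed by RGS10 (11.2), RGS14 (9.67), RGS16 (4.49), RGS2 (4.37), RGS19 (3.6), RGS12 (2.77), RGS3 (0.862) and RGS13 (0.538 TPM). Ranges of neighbours overlapped for RGS10 with RGS14 and for RGS16 with RGS2, and were apart for the others. In HA-TAZ libraries the order was RGS1 (59.4 TPM), RGS10 (9.44), RGS14 (7.90), RGS2 (7.19), RGS16 (5.70), RGS19 (3.29), RGS12 (2.58), RGS13 (0.689) and RGS3 (0.597 TPM). There RGS14 overlapped with RGS2, and RGS13 with RGS3. RGS2 and RGS16 exchanged places between the groups, as did RGS13 and RGS3.

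Shares within the family do not depend on how libraries are scaled. RGS1 made up 63.4, 61.0 and 59.4% of the summed TPM of the 9 members across HA-TAZ 1 to 3, and 29.3, 27.8 and 31.7% across controls a to c. The summed TPM as deposited of the 8 other members was 37.4 ± 2.19 with HA-TAZ and 37.5 ± 2.44 without (SD, n = 3 each). For all 9 it was 96.7 ± 7.22 against 53.2 ± 2.72 TPM (SD, n = 3 each), a net difference that lay in RGS1. Within the 8, means as deposited differed both ways. With HA-TAZ and without, they were 7.19 and 4.37 TPM for RGS2 and 5.70 and 4.49 TPM for RGS16. For RGS10 they were 9.44 and 11.2 TPM, and for RGS14 7.90 and 9.67 TPM. Unlike shares, these sums depend on the scale, and on scaled TPM no tested member had a negative log2 fold change. RGS10 took 9.79 ± 0.813% in HA-TAZ and 21.0 ± 1.14% in control libraries, and RGS14 took 8.14 ± 0.647% and 18.1 ± 2.27% (SD, n = 3 each). RGS2 took 7.43 ± 0.588% and 8.22 ± 0.676% (SD, n = 3 each), with overlapping ranges.

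**Figure D4:**
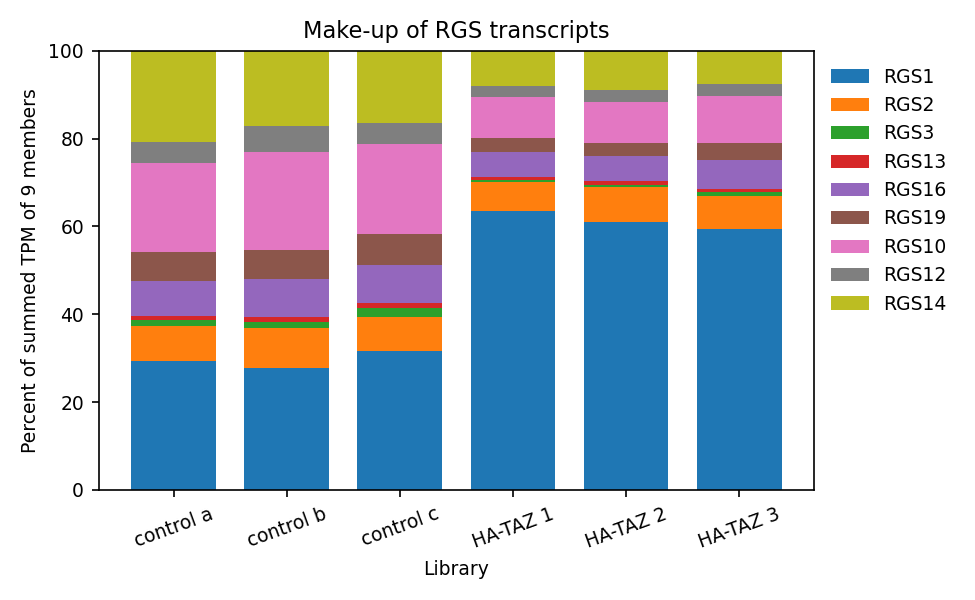
Stacked bars of the percent of summed TPM that each of the 9 members takes in each library. The RGS1 segment at the base covers 27.8 to 31.7% in the controls and 59.4 to 63.4% in the HA-TAZ libraries, and the RGS10 and RGS14 segments are correspondingly narrower in HA-TAZ.

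The members have 95 transcripts in the table, of which 37 have statistics in the authors' deposited table. There, 7 of the 37 were positive at a q-value under 0.05 and 0 were negative, and over all transcripts with statistics these shares were 4.08% and 1.60%. They are 5 RGS1 transcripts, 1 of RGS2 and the single RGS16 transcript. The same libraries and the same contrast lie behind these values, so they are not separate evidence. The effects in the authors' deposited table, on a natural log scale, were 1.5 (SE 0.103) for RGS1 ENST00000367459.3, 0.709 (SE 0.112) for RGS2 ENST00000235382.5 and 0.466 (SE 0.0856) for RGS16 ENST00000367558.5. The mean estimated counts implied by the authors' deposited table summed to 2445 per library for RGS1, 753 for RGS16, 719 for RGS14 and 336 for RGS2, and to 108 for RGS3 and 114 for RGS13. These sums cover only the transcripts with statistics, which were 5 of 6 for RGS1, 4 of 4 for RGS2, 2 of 30 for RGS3 and 8 of 28 for RGS12. Counting error alone on these counts is about 2.02% for RGS1, 5.45% for RGS2 and 9.63% for RGS3. For RGS3 it is thus not the error of the gene's summed TPM.

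RGS1, RGS13 and RGS2 lie near each other on chromosome 1, in a row with RGS18 and RGS21. AL136454.1, listed between RGS13 and RGS2, averaged 0.0713 TPM with HA-TAZ and 0.0341 TPM without, with overlap. RGS18 was listed at 0 in all 6 libraries, and RGS21 at 0 in 5 and 0.0136 TPM in HA-TAZ 3. The protein-coding genes beyond RGS2, UCHL5 and TROVE2, had log2 fold changes of 0.07 and 0.18 (adjusted p = 0.639 and 0.0867, limma with Benjamini-Hochberg). On the other side, BRINP3 was at most 0.0328 TPM in any library, and PLA2G4A had a log2 fold change of 0.24 (adjusted p = 0.119, limma with Benjamini-Hochberg). None of these 3 tested flanking genes passed the threshold. The flanks are the next protein-coding genes in order, whatever their distance. They and AL136454.1 were chosen after the members' values were seen. In GENCODE release 29 the span of a long non-coding gene on the opposite strand, AL390957.1, overlaps those of RGS1, RGS13 and RGS2. The kit marks strand, but whether the quantification used it is not given in the sources used here. Overlap of exons was not examined, so whether RNA of AL390957.1, not analysed here, enters the values of RGS1, RGS13 and RGS2 is not known. AL162727.2, antisense to RGS3, averaged 0 TPM with HA-TAZ and 0.182 TPM without, and AL645949.1, a pseudogene that overlaps RGS12, averaged 0.59 and 0.909 TPM. Both have values of their own, and whether their RNA also affects the levels of RGS3 and RGS12 was not tested.

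The tested protein-coding genes with the profile most like that of RGS1 over the 6 libraries were TRAF4, a signalling adaptor (Pearson r = 0.9992), SLFN5, an interferon-induced Schlafen protein (0.9988), CXCL10, a chemokine (0.9986), FAS, a death receptor (0.9985), and CSRP1, a LIM domain protein (0.9985), computed on log2(scaled TPM + 1). The points share the group difference and the libraries, and 758 of the 11666 tested protein-coding genes had an r of at least 0.95 with RGS1. A like profile is not a like size: the log2 fold changes were 3.38 for CXCL10, 1.75 for FAS, 0.86 for TRAF4, 0.79 for SLFN5 and 0.32 for CSRP1.

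The other 12 genes named RGS were mostly low. Only RGS5, RGS7 and RGS20 passed the filter, and 0 of these 3 were called (limma, Benjamini-Hochberg), with 0 at an unadjusted p-value under 0.05. RGS7, of the R7 subfamily that pairs with Gβ5, averaged 2.78 ± 0.312 TPM with HA-TAZ and 3.73 ± 0.336 TPM without (SD, n = 3 each), without overlap. On scaled TPM its groups overlapped, with a log2 fold change of −0.10 (adjusted p = 0.593, limma with Benjamini-Hochberg). RGS20 averaged 2.84 ± 0.163 and 2.94 ± 0.576 TPM (SD, n = 3 each), with overlap. RGS5, an R4 gene, was at 1.46, 1.72 and 1.81 TPM across HA-TAZ 1 to 3 and at 2.87, 2.36 and 3.14 TPM across controls a to c. Its log2 fold change was −0.30 (adjusted p = 0.164, limma with Benjamini-Hochberg), and on TPM as deposited it was −0.51 and past the threshold (adjusted p = 0.0499 by limma). The 9 members held 91.7 ± 0.923% of the TPM of all RGS-named genes in HA-TAZ and 82.2 ± 0.243% in control libraries (SD, n = 3 each).

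The rest of the pathway was read from lists of the proteins that RGS members act on or alongside. Of 123 genes in 7 lists, 62 passed the filter, 6 were called higher and 2 lower (limma, Benjamini-Hochberg), against 4.67% and 2.63% of all tested genes. On TPM as deposited 1 was called higher and 11 lower, where 1.15% and 13.5% of all tested genes were, so the split of directions rests on the scaling. The median log2 fold change of the 62 was 0.00, beside −0.03 over all genes. The calls also rest on having all libraries. With 1 library left out, 61 or 62 of them were tested. None was called without HA-TAZ 1, 2 or 3 or without control b, where 0.513, 0.601, 0.926 and 0.739% of all tested genes were. GNA13 and GPR132 were called without control a or without control c, where the shares over all genes were 1.83 and 2.09%. The 8 calls became 4 without the intensity trend (3.35% over all genes), 3 without a filter on level (1.46%) and 15 of 62 with protein-coding genes only (23.5%). With a filter at a mean of at least 5 TPM, 10 of 35 were called (17.8% over all genes), and with a pseudocount of 0.1, 8 of 62 (7.13%). With all libraries, an unadjusted p-value under 0.05 (limma) was found for 20 of the 62, beside 6959 of all 22651 tested genes.

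Among receptors of lymphoid cells, 3 of 11 tested were called higher and 0 lower, beside 4.67% called higher over all tested genes. On TPM as deposited 1 of the 11 was called higher, beside 1.15%. Of the 11 log2 fold changes on scaled TPM, 10 were above 0 and 1 was below. Their median was only 0.07, and −0.10 on TPM as deposited, beside −0.03 and −0.27 over all tested genes. GPR132, a lymphoid receptor linked to lysophospholipids and oxidised lipids, was at 7.62, 7.93 and 7.45 TPM across HA-TAZ 1 to 3 and at 5.46, 5.77 and 5.68 TPM across controls a to c. Its groups did not overlap, and its log2 fold change was 0.65 (SE 0.08, adjusted p = 0.0207, limma with Benjamini-Hochberg). It also passed on TPM as deposited (0.39, adjusted p = 0.0365 by limma). PTGER4, a prostaglandin E2 receptor coupled to Gαs, had a log2 fold change of 0.54 (adjusted p = 0.0313, limma with Benjamini-Hochberg) and P2RY10, a receptor for lysophospholipids, of 0.76 (0.0469). P2RY10 was low, at 1.54, 1.99 and 1.04 TPM across HA-TAZ 1 to 3 and 0.723, 0.547 and 0.606 TPM across controls a to c, without overlap. At such levels the pseudocount of 1 understates a change, and with a pseudocount of 0.1 the P2RY10 value was 1.39. Neither PTGER4 nor P2RY10 passed on TPM as deposited. CXCR4, the receptor for CXCL12 in bone marrow, averaged 11.5 ± 0.440 TPM with HA-TAZ and 13.8 ± 1.37 TPM without (SD, n = 3 each), and its log2 fold change was 0.04 (adjusted p = 0.661, limma with Benjamini-Hochberg). CXCR4 was named after its values were seen.

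Of 7 tested Gα subunits, GNA13 alone was called, and it was higher, beside 4.67% called higher and 2.63% lower over all tested genes. Its log2 fold change was 0.35 (adjusted p = 0.0158, limma with Benjamini-Hochberg), and it was 0.05 and not called on TPM as deposited. There, GNAS, the most abundant Gα gene at 546 TPM with HA-TAZ and 682 TPM without, was called lower (−0.32, adjusted p = 0.0445 by limma), against −0.02 on scaled TPM (adjusted p = 0.768). On TPM as deposited 13.5% of all tested genes were called lower, and the median log2 fold change over all of them was −0.27. GNAS was named after its values were seen. The product of GNA13, Gα13, restrains migration of germinal centre B cells. The Gαi genes that RGS1, RGS10, RGS16 and RGS19 act on were not called: GNAI2 had a log2 fold change of 0.19 (adjusted p = 0.0562, limma with Benjamini-Hochberg) and GNAI3 of 0.12 (adjusted p = 0.281). Both were named after their values were seen. GNAI2 has more than 1 gene ID, between which reads may be split, so its value is uncertain. Among 8 tested Gβ and Gγ subunits, GNB1 (0.34, adjusted p = 0.0331 by limma) and GNG5 (0.28, 0.0461) were called higher and GNG7 lower (−0.38, 0.0424). The shares over all tested genes were again 4.67% called higher and 2.63% lower. The GNB1 and GNG5 values were 0.05 and −0.01 on TPM as deposited, where neither passed, while GNG7 fell by 0.64 on the log2 scale and passed.

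Other proteins with an RGS homology domain, such as the G protein-coupled receptor kinases, axins and RhoGEFs, and partners of the R7 subfamily gave 1 call among 14 tested, which was lower, beside 2.63% called lower over all tested genes. On TPM as deposited 5 of the 14 were called lower (ARHGEF1, SNX13, SNX14, SNX25 and GNB5), beside 13.5% over all tested genes. ARHGEF1, SNX13, SNX14 and GNB5 were named after their values were seen. ARHGEF1 has more than 1 gene ID, between which reads may be split, so its value is uncertain. SNX25, a sorting nexin, was at 17.2, 19.2 and 18.9 TPM across HA-TAZ 1 to 3 and at 33.2, 28.9 and 27.9 TPM across controls a to c, without overlap. Its log2 fold change was −0.38 (SE 0.05, adjusted p = 0.0210, limma with Benjamini-Hochberg), and it was lower and called on TPM as deposited as well (−0.67, adjusted p = 0.0252 by limma). None of 15 tested effectors (adenylyl cyclases, phospholipases C β, phosphodiesterases and others) was called by limma. Of the 15, 4 had an unadjusted p-value under 0.05 (limma), beside 6959 of all 22651 tested genes. None of 4 tested other regulators of Gα was called, with 0 at an unadjusted p-value under 0.05. With TPM as deposited, 3 effectors and 0 of these regulators were called, all 3 lower.

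**Figure D5:**
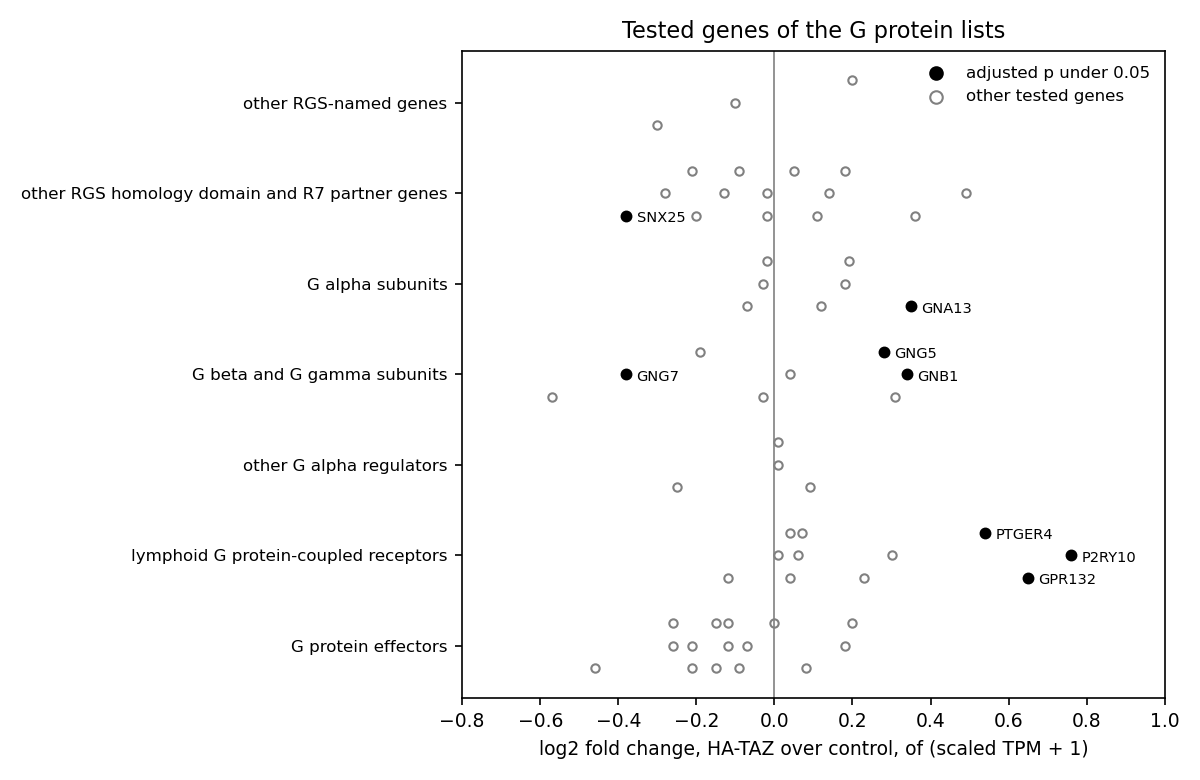
Log2 fold change of HA-TAZ over control on log2(scaled TPM + 1) for the 62 tested genes of the 7 lists, 1 list a row, with small vertical offsets for legibility. Filled and named points are the 8 genes past the threshold, 6 of them to the right of 0, and SNX25 and GNG7 to the left.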

How the data were processed

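Transcript TPM by the authors, for 215170 transcripts in 6 libraries, was used as deposited. Per the submitters' processing notes, FastQC, MultiQC 1.92, kallisto 0.46.0, sleuth 0.30.0 and the build GRCh37 were used. Their roles and the annotation release are not given in the sources used here. The authors' deposited table of a Wald test gives p-values and q-values, an effect on a natural log scale with its standard error, and a mean natural log of estimated counts per transcript. Depth per library is unknown.

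Columns naming TAZ and a number were matched to titles. The 3 columns named scr, a name in no label, were taken as wild type by elimination and are called control a, b and c.

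TPM was summed per gene ID. TPM was divided by median-of-ratios factors over 21512 genes, from 0.866 to 1.21. Genes with a mean of at least 1 TPM were tested with limma 3.58.1 (R 4.3.3, trend in intensity), with two-sided p-values from log2(scaled TPM + 1) and Benjamini-Hochberg adjustment. A pseudocount of 1 understates changes of low genes. The script was tested on simulated data. Python 3.11.15, pandas 2.3.3 and matplotlib 3.10.9 were used.

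Members and lists were chosen with earlier results of these data known. Named are all members, the genes of each list past the threshold (at most 4 by p), the 5 genes most like RGS1 and transcripts with a mean of at least 1 TPM. No tested member had a negative log2 fold change on scaled TPM, so the same search for a falling member was not made. Other genes and transcripts were named after their values were seen. They are CXCR4, GNAI2, GNAI3, GNAS, RGS19 ENST00000395042.1, IGJ, AL136454.1, the flanking and overlapping genes, and genes called on TPM as deposited alone. Protein sequences were not used here.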

Additional observations from a re-analysis of the deposited data

How the results depend on the processing

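The 3 members called became 2 with TPM as deposited and 1 to 2 in the 6 fits that each left out a library (1 without HA-TAZ 1 or HA-TAZ 2), where 0.513 to 2.09% of all tested genes were called. The count was 3 under the other 5 alternatives, beside shares from 1.46% (no filter) to 23.5% (protein-coding genes only), so equal counts do not stand for equal shares. The 8 pathway genes called became 12 with TPM as deposited, 15 with protein-coding genes only, 10 of 35 with a mean of at least 5 TPM, 4 with limma without trend, 3 without a filter on level, and 0 to 2 in the fits that each left out a library. Fewer libraries entered those fits, and the other causes were not tested. The direction turned with TPM as deposited for RGS10 (−0.22), RGS12 (−0.07), RGS14 (−0.26), RGS19 (−0.10) and GNG5 (−0.01). The median over all tested genes on that scale was −0.27. It turned with protein-coding genes only for RGS10 (−0.02) and RGS14 (−0.05). For RGS14 it also turned without HA-TAZ 1 (−0.02), HA-TAZ 2 (−0.03), control b (−0.01) or control c (−0.04), and stayed above 0 without HA-TAZ 3 (0.11) or control a (0.09). RGS1 and WWTR1 kept direction and call under all 12 alternatives. No paired analysis was possible because no label or header ties a control column to 1 of the wild type titles. RGS3 and RGS13 had the fewest estimated counts of the members in the authors' deposited table, about 108 and 114 over the transcripts with statistics. Their precision was judged from the spread between libraries.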
